A study of Mus musculus with 41 samples.

Results

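The genes described here are 9 interferon-stimulated genes of the mouse, Ifit1, Ifit2, Ifit3, Irf7, Stat2, Oasl2, Rsad2, Ifi44 and Usp18, whose messenger RNA was measured in lung and liver after inhalation of titanium dioxide nanoparticles (nanoTiO2). Members were the spots of the mRNA arrays whose deposited gene name equals one of the 9 symbols. They came to 14 probes for 9 genes, of 41174 probes and 27962 gene names on the array. All mice were female animals labelled C57BL/6, of the substrain C57BL/6BomTac, that had been time-mated without conceiving, with their age labelled only as a gestational stage. Exposed mice inhaled 40 mg/m3 of surface-coated nanoTiO2 for 1 hour per day on 11 consecutive days, control mice breathed filtered air, and both were sacrificed 5 days after the last exposure. Lung RNA came from 7 exposed and 6 control mice and liver RNA from 7 exposed and 8 control mice, with 1 mouse per array. Matched by their number in the labels, 12 mice were measured in both tissues.

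Type I interferons bind the receptor formed by Ifnar1 and Ifnar2, and the kinases Jak1 and Tyk2 then phosphorylate Stat2. A complex that holds Stat2 and Irf9 binds the interferon-stimulated response element (ISRE) in the promoters of target genes. Many of the targets are antiviral effectors, and some feed back on the pathway, such as Irf7, which drives further interferon transcription, and Usp18, which blocks signalling at the receptor. Most of these genes have a low tonic level in healthy tissue and rise after viral infection or contact with nucleic acids.

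The response element is shown first because it is the sequence through which the pathway reaches these genes. RefSeq promoter windows on GRCm38.p6, 250 bases before to 50 bases after a transcript start, were found for 8 of the 9 genes. The core searched was GAAANNGAAA on either strand, where N is any base (TTTCNNTTTC as read from the other strand, 1 motif in 2 orientations). It was present in the windows of 4 members, Ifit1, Ifit3, Stat2 and Rsad2, and in 3.44% of all 32851 windows. Ifit1 and Ifit3 each held 2 matches, and all 6 matches lay on the strand opposite to transcription. Windows of Ifit2, Irf7, Oasl2 and Ifi44 held no match to these letters. The stretches around the matches are printed 5′ to 3′ on the gene's strand with the matches in capitals. They are chr19:34640755-34640843 (plus strand) for Ifit1, chr19:34583343-34583446 (plus strand, upstream of 1 annotated transcript start inside the gene) for Ifit3, chr10:128270248-128270315 (plus strand) for Stat2 and chr12:26456533-26456602 (minus strand) for Rsad2.
Ifit1: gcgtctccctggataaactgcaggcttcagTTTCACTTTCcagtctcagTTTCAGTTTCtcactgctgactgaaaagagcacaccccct
Ifit3: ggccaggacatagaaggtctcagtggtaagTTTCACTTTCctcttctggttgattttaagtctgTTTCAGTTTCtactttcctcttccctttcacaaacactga
Stat2: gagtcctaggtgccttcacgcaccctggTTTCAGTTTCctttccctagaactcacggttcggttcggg
Rsad2: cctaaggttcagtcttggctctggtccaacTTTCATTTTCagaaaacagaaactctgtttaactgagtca

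The matches began 104 and 85 bases before the start in Ifit1, 156 and 122 bases before it in Ifit3, 222 bases in Stat2 and 120 bases in Rsad2. A match is a run of letters and not a measured binding site.

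Each array probe is a run of 60 bases, and 3 of the 14 member probes have genomic coordinates longer than their own length, so they cross an exon junction and lie in spliced sequence. These are shown because they read spliced mRNA and cannot read genomic DNA as 1 run. The Irf7 probe covers 351 bases of the genome at chr7:137682028-137682378, and Rsad2 probes 2 and 3 cover chr12:24286540-24289841 and chr12:24281379-24284417, all on mm7, the build named in the headers of the lung files. No part is in capitals.
Irf7: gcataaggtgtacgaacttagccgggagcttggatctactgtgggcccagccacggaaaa
Rsad2 probe 2: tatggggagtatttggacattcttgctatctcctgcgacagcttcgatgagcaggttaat
Rsad2 probe 3: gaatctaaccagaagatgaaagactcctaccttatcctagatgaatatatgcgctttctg

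In RefSeq on GRCm38.p6, the Ifit genes lie together on chromosome 19, with Ifit2 at chr19:34550550-34576534, Ifit3 at chr19:34583119-34588982 and Ifit1 at chr19:34640889-34650009. Stat2 lies at chr10:128270498-128292853, Irf7 at chr7:141263183-141266499 and Usp18 at chr6:121245906-121270917. Oasl2 lies at chr5:114896926-114912245, Rsad2 at chr12:26442743-26456452 and Ifi44 at chr3:151730922-151749910. The second Ifit3 probe lies 23.9 kb from the first on mm7, and RefSeq places the start of Ifit3b, a related neighbouring gene, 24.4 kb from that of Ifit3 on GRCm38.p6, so the gene read by the second probe is uncertain. Probe 1 of a gene is its probe with the brightest sample signal, and it stands for the gene unless another is named.

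Every value below is a log2 ratio of sample RNA, labelled with Cy5, over a reference RNA pooled from mouse cell lines, labelled with Cy3. A ratio of 0 means equal signal, and a difference of 1 between groups is a doubling. Ratios of different genes are not levels of those genes relative to each other. Arrays had 55.1% to 70.5% of their spots well above background, and all 14 member probes were well above it on every array except the second probes of Ifit2 and Ifi44 in liver. No array was left out. Exposed mice were at positions 1 and 2 of their slides and control mice at positions 3 and 4, so slide position and exposure cannot be told apart. Lung and liver were run on different slides and read with different versions of the scanner software, so these and the tissue cannot be told apart either. Mice were measured as whole tissue, in which fewer cells of a type and less RNA per cell cannot be told apart.

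In the lung, no difference between exposed and control mice passed the test for any of the 9 genes. At an adjusted p under 0.05 (limma with Benjamini-Hochberg adjustment over all probes), 0 of 14 member probes were called, against 0.202% of the 41155 probes tested on the array (83 probes, 74 of them higher). Before adjustment, 2 of the 14 had a p under 0.05, both of Ifi44, against 7.13% of all probes. Differences of exposed minus control ran from -0.25 to 0.07, with a median over the 9 genes of -0.02 beside 0.0064 over the 18078 genes well above background. The 95% confidence intervals of the 14 differences reached no further than 1.50-fold lower and 1.21-fold higher. The lowest adjusted p of a member was 0.487.

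The transcription factors of the set had differences near 0 in lung. Irf7, the factor that amplifies interferon transcription, had a lowest, median and highest ratio of -1.31, -1.08 and -0.67 in the 7 exposed lungs and of -1.29, -1.06 and -0.91 in the 6 control lungs. The exposed range enclosed the control range, and the difference was 0.0070 ± 0.090 (SE), with a 95% confidence interval of -0.19 to 0.20 (adjusted p = 0.994, limma). Stat2, which carries the signal from the receptor to the nucleus, ran from 0.82 to 1.40 (median 1.22) in exposed lungs and from 1.07 to 1.33 (median 1.15) in control lungs. Here too the exposed mice lay on both sides of the control mice, with a difference of 0.012 ± 0.084 (SE, adjusted p = 0.987, limma).

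Of the antiviral effectors, Ifit1, Oasl2 and Rsad2 were spread more widely between mice than Irf7 and Stat2. Ifit2 was spread less, with an SD within groups of 0.128 beside 0.165 for Stat2, and Ifit3 about as much as Irf7, at 0.18. Ifit1, whose protein binds foreign RNA and holds back its translation, had a lowest, median and highest ratio of -0.24, 0.24 and 0.52 in exposed lungs and of 0.11, 0.33 and 0.74 in control lungs. Of the 7 exposed mice, 3 were below every control mouse, and the difference was -0.19 ± 0.11 (SE, adjusted p = 0.767, limma). Ifit2 and Ifit3, which act in the same protein family, differed by -0.078 and 0.074, both with adjusted p of 0.838 or more. Oasl2, a relative of the oligoadenylate synthetases, had medians of 1.03 in exposed and 1.08 in control lungs, and Rsad2, which encodes viperin, an enzyme that makes a chain-terminating nucleotide, had medians of 0.32 and 0.38. In both genes the range of the exposed mice lay inside that of the control mice, and the differences were -0.019 ± 0.14 and -0.21 ± 0.18 (SE), with adjusted p of 0.987 and 0.838 (limma). Single control mice moved the Rsad2 value, to -0.068 without mouse 34 and to -0.33 without mouse 24. Rsad2 probes 2 and 3, which cross exon junctions, gave -0.18 and -0.13.

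Ifi44, an interferon-induced protein found in the cytoplasm, was the member with the lowest difference in lung. Its lowest, median and highest ratios were -1.16, -0.96 and -0.61 in 6 exposed lungs, since the spot of mouse 12 was marked as an outlier by the scanner software and left out, and -0.90, -0.61 and -0.47 in 6 control lungs. Of the 6 exposed mice, 4 lay below every control mouse, with a difference of -0.25 ± 0.11 (SE), an unadjusted p of 0.0312 and an adjusted p of 0.668 (limma). Its second probe, with 6 exposed and 5 control mice, gave -0.21 ± 0.065 (SE) with 5 of 6 exposed mice below every control mouse, and an adjusted p of 0.487 (limma). Exact permutation tests over the mice, two-sided, gave 0.0671 for the first probe and 0.00866 for the second, where the smallest p that 6 against 5 mice allow is 0.00433. Neither probe passed the adjustment over the whole array. Usp18, the inhibitor, ran from -0.95 to -0.51 in exposed lungs and from -0.91 to -0.73 in control lungs, with a difference of 0.036 ± 0.060 (SE, adjusted p = 0.926, limma).

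**Figure D1:**
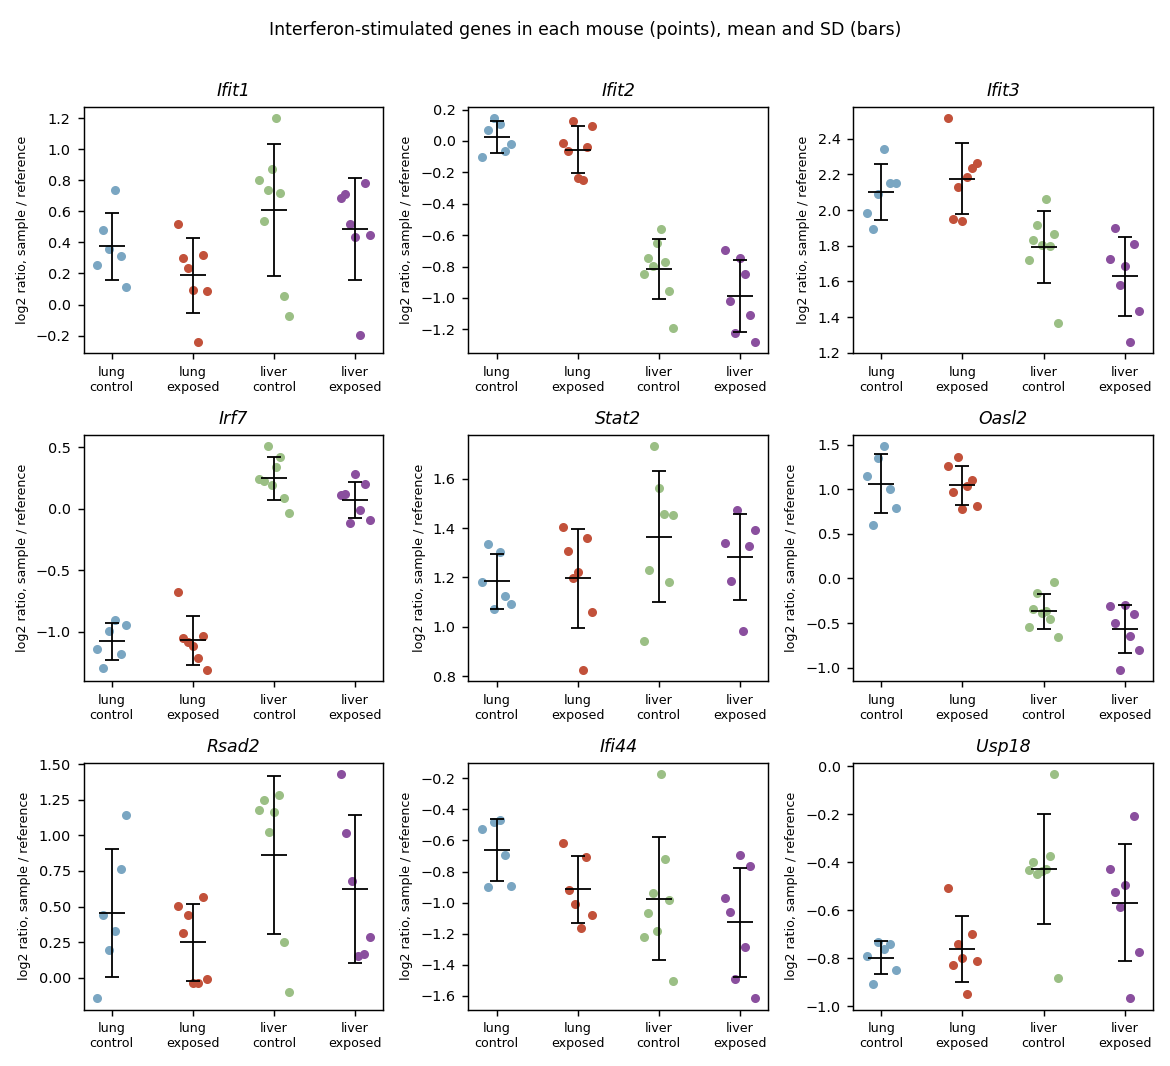
Log2 ratio of sample over reference (vertical axis, a separate scale for each gene) of the brightest probe of each of the 9 genes, with 1 point per mouse in the 4 groups and bars for mean ± SD. Exposed and control mice overlap in every panel, while Ifit2 and Oasl2 are higher in lung than in liver and Irf7 is higher in liver.

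In the liver, 0 of 14 member probes were called, and 0% of the 41143 probes tested on the array were (limma). Before adjustment, 2 of the 14 had a p under 0.05, Irf7 and the second probe of Ifit2, against 2.53% of all probes. Each of the 14 member probes had a difference below 0 in exposed livers, against 52.8% of all probes, and the 9 genes had a median difference of -0.17 beside -0.0069 over 18468 genes well above background. This common direction depended on the processing: of the 9 genes, 9 were below 0 as reported, 5 with the background model fitted on all spots and 7 with median centering. Under the other alternative settings, and with any 1 liver array left out, 9 of 9 were below 0. The confidence intervals reached 1.74-fold lower and 1.25-fold higher at most, and the lowest adjusted p was 1.

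Irf7 had a lowest, median and highest ratio of -0.11, 0.11 and 0.28 in 7 exposed livers and of -0.035, 0.24 and 0.51 in 8 control livers. Of the exposed mice, 2 were below every control mouse and 0 above, and the difference was -0.18 ± 0.080 (SE), with an unadjusted p of 0.0402 and an adjusted p of 1 (limma). The exact two-sided permutation test over the 15 mice gave 0.0575. Rsad2 had the lowest difference and also the widest spread, from 0.15 to 1.43 in exposed livers (median 0.49, n = 6) and from -0.10 to 1.28 in control livers (median 1.16, n = 7). Its probes 2 and 3 gave -0.20 and -0.015. The difference of its brightest probe, -0.24 ± 0.26 (SE), was smaller than the SD within either group, 0.519 in exposed and 0.554 in control mice. Without exposed mouse 1 the difference was -0.40, and without exposed mouse 19 it was -0.15.

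Oasl2 in liver ran from -1.03 to -0.29 in exposed and from -0.65 to -0.04 in control mice, a difference of -0.20 ± 0.11 (SE, adjusted p = 1, limma). Ifit1, Ifit2 and Ifit3 differed by -0.12, -0.17 and -0.17, Usp18 by -0.14, Ifi44 by -0.15 and Stat2 by -0.083, all with an adjusted p of 1. Some of these rested on single mice, as Ifi44 was at -0.038 without mouse 32, Stat2 at -0.022 without mouse 29, Usp18 at -0.072 without mouse 19 and Ifit1 at -0.010 without mouse 19. The second Ifi44 probe gave -0.0082, and exposed and control ranges overlapped for all 14 probes. The second Ifit2 probe was well above background in 0 of 7 exposed and 2 of 8 control livers, so its exposed value is only a bound. Since most control livers were near background as well, no fold is given for it.

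**Figure D2:**
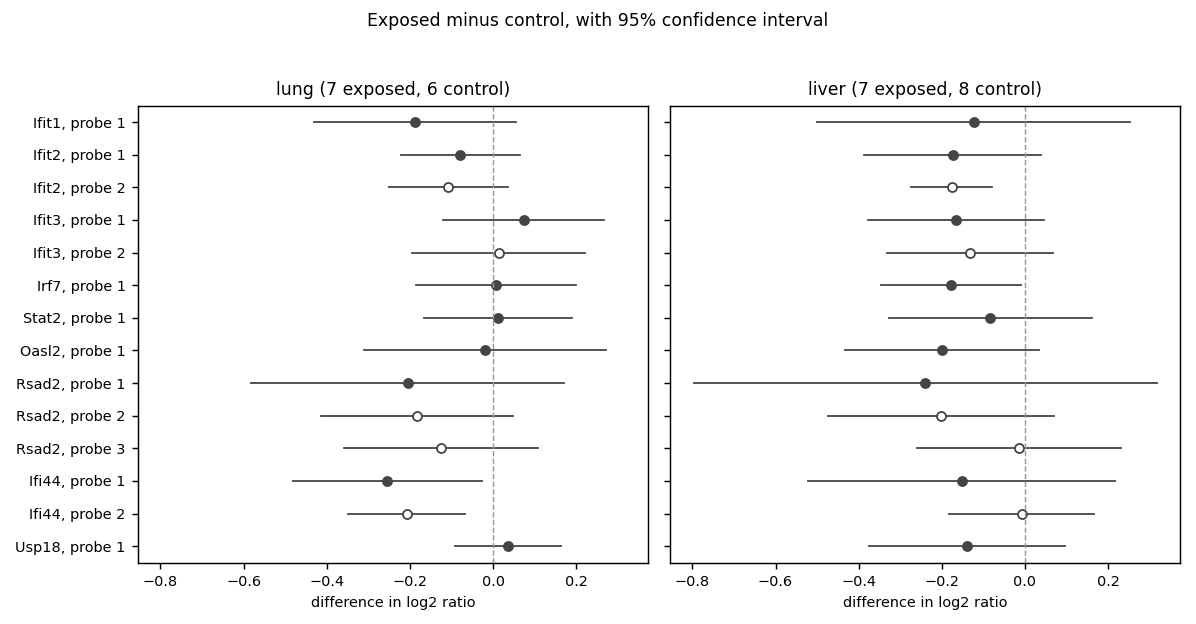
Difference of exposed minus control in log2 ratio (horizontal axis) for each of the 14 member probes in lung (left) and liver (right), with 95% confidence intervals as lines. Filled points are the brightest probe of a gene and open points its other probes; no probe passed an adjusted p of 0.05, and all 14 liver points lie left of 0.

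Whether exposure acted differently in the 2 tissues was tested over all 28 arrays in 1 fit. No member passed, with 0 of 14 probes called against 0.141% of the 41125 probes tested, and 0 of 14 at an unadjusted p under 0.05 against 4.3%. The differences of the differences, lung minus liver, ran from -0.20 to 0.24 with a lowest adjusted p of 1 (limma). Irf7 gave 0.18, from a lung difference of 0.0070 and a liver difference of -0.18. With the mouse as a block over the 12 mice measured in both tissues, 4 of 14 member probes had an unadjusted p under 0.05, against 5.86% of all probes in that fit, and 0 passed the adjustment, the lowest adjusted p being 0.592 (limma), and Ifit1 changed from -0.064 to 0.16.

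The Cy3 channel was compared alone, since exposed and control arrays carried the same reference RNA. Its signal at the member probes differed between exposed and control arrays by -0.17 to 0.10 on the log2 scale in lung and by -0.073 to 0.063 in liver. Of the 14 member probes, 0 were called in either tissue. Before adjustment, 1 member probe had a p under 0.05 in lung, against 4.42% of all probes, and 0 in liver, against 3.53% (limma). The 1 was the first Ifi44 probe, at -0.17 (adjusted p = 0.949), which was also the member with the lowest lung ratio difference. The part of this Cy3 difference, or of slide position, in the lower Ifi44 ratio of exposed lungs was not tested.

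The rest of the pathway was followed in 7 lists of 128 genes on the array. In lung, 0 of the 128 were called, with 14 at an unadjusted p under 0.05 where 7.44% of all genes were, and in liver 0 were called, with 4 where 2.59% of all genes were (limma). Of the genes well above background, 65 were higher and 49 lower in exposed lungs, where 47.1% of all such genes were below 0, and 24 were higher and 89 lower in exposed livers, where 54.4% of all such genes were below 0. In exposed livers 44 of 49 other type I interferon-stimulated genes were lower (median -0.081), as were 19 of 22 interferon gamma-induced genes (median -0.088), 9 of 11 sensors and adaptors, 5 of 7 transcription factors, 4 of 7 inhibitors, 4 of 8 interferons and 4 of 9 receptors and kinases. None of these passed the test.

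Within the lists, Isg15, the ubiquitin-like modifier that Usp18 removes from proteins, had the lowest difference of the type I genes in liver. It ran from -0.36 to 0.03 in 5 exposed and from -0.30 to 0.54 in 6 control livers, a difference of -0.42 ± 0.14 (SE, unadjusted p = 0.0116, adjusted p = 1, limma), and 2 exposed mice lay below every control mouse. In lung, Cxcl9, a T cell chemokine induced by interferon gamma, had the highest difference of its list. It ran from 0.25 to 2.12 in 6 exposed and from 0.21 to 0.53 in 6 control lungs, with 5 exposed mice above every control mouse, and gave 0.65 ± 0.22 (SE, adjusted p = 0.543, limma). Irf5, a transcription factor downstream of Toll-like receptors, gave 0.24 ± 0.062 (SE) in lung with 5 of 7 exposed mice above every control mouse (adjusted p = 0.275, limma).

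The other ends of the lists in lung were Ifna13 at 0.033 and Ifnz at -0.12 among the interferons, Ifngr2 at 0.18 and Jak1 at -0.18 among receptors and kinases, and Isgf3g, which encodes Irf9, at -0.11 among the transcription factors. Socs1 at 0.28 and Ptpn11 at -0.21 bounded the inhibitors, Tbk1 at 0.12 and Ifih1 at -0.10 the sensors and adaptors, Ifi27 at 0.30 and Ifitm6 at -0.31 the other type I genes, and Iigp2 at -0.12 was the lowest gamma-induced gene. In liver the ends were Ifna9 at 0.064 and Ifna1 at -0.52 (5 exposed and 2 control spots left after marked spots were removed), Ifngr2 at 0.038 and Jak1 at -0.15, Irf3 at 0.035 and Irf5 at -0.16, Ptpn2 at 0.046 and Socs3 at -0.31, and Tlr3 at 0.062 and Ddx58 at -0.18. Ube2l6 at 0.12 was the highest other type I gene there, and Indo at 0.076 and Tgtp at -0.35 were the ends of the gamma-induced list. All of these are differences of exposed minus control in log2 ratio that did not pass the adjustment.

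**Figure D3:**
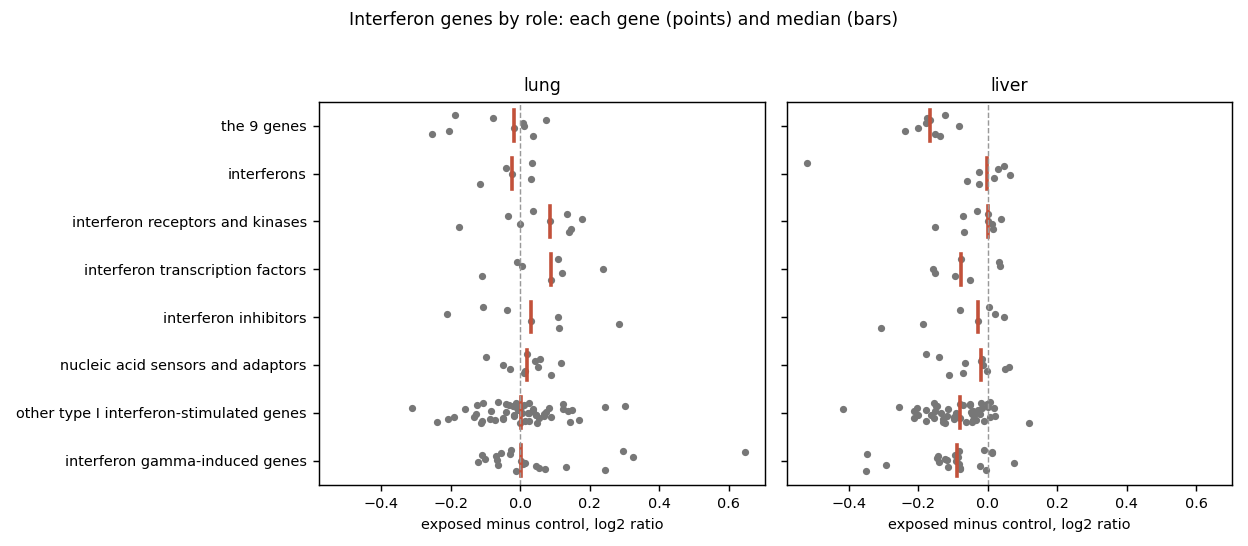
Difference of exposed minus control in log2 ratio (horizontal axis) of each gene well above background (points) and the median of its list (bars), for the 9 genes and the 7 lists of interferon pathway genes, in lung (left) and liver (right). Medians in lung lie between -0.02 and 0.09, and in liver most points of the 9 genes and of the 2 lists of induced genes lie below 0.

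Markers of cell types were read on the same arrays. In lung, Marco, a scavenger receptor of macrophages, rose by 0.57 ± 0.088 (SE) on the log2 scale, with 7 of 7 exposed mice above every control mouse (adjusted p = 0.00924, limma), and Foxj1, the regulator of ciliated cells, by 0.30 ± 0.052 (SE) with 6 of 6 (adjusted p = 0.037, limma). The other 6 lung epithelium genes with a value, Ager, Aqp5, Scgb1a1, Sftpa1, Sftpb and Sftpc, had differences of -0.2 to -0.056 in lung, and none was called. Of the 10 macrophage genes, 7 were higher in exposed lungs, and 4 had an unadjusted p under 0.05, against 7.44% of all genes (limma). Their mean ratio per array overlapped between groups, at 1.42 to 1.83 in exposed and 1.57 to 1.91 in control lungs. Each mean, here and for the other cell types, left out genes whose spot was marked on that array. Chi3l3, with a high ratio, was measured in 4 exposed and 6 control lungs, so the means do not compare like sets of genes. Neutrophil genes overlapped too, at 0.55 to 1.36 and 0.59 to 1.25, with the elastase Ela2 well above background in no lung. Of the neutrophil genes well above background, 9 of 10 were lower in exposed lungs, and 4 of 4 hepatocyte genes were higher. None of these was called. In liver, 9 of 9 macrophage genes and 4 of 4 Kupffer cell genes well above background were lower in exposed mice and none was called, with mean ratios of -0.31 to 0.36 against -0.24 to 0.34 and of 3.82 to 5.08 against 3.98 to 4.50. Genes of hepatocytes had mean ratios of 5.19 to 6.30 in exposed and 5.93 to 6.51 in control livers, with 5 lower and 0 higher in exposed livers. Lower there too were 5 of 5 genes of plasmacytoid dendritic cells and 4 of 5 neutrophil genes. The same held for 5 of 9 T and B cell, 2 of 5 lung epithelium and 1 of 5 endothelium genes. None was called. The part of these in the common direction of the member genes in liver was not tested.

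The larger contrast in these 9 genes was between the tissues, and it ran in both directions. Between control lungs and control livers, 9 of 14 member probes were called, where 57.8% of all 41149 probes tested were (limma, adjusted p under 0.05). This fit did not pair the lung and liver of a mouse, and neither did the tissue differences below unless the mouse is named as a block. Of the 14, 5 were higher in lung, against 29.3% of all probes, and 4 were higher in liver, against 28.5%. Member probes were thus called about as often as all probes, which include probes near background. By their brightest probe, 5 of the 9 genes were called, against 78.6% of 20164 genes well above background. Marker genes were in keeping with the tissue labels, as 7 of 8 lung epithelium genes were called higher in lung and 6 of 6 hepatocyte genes higher in liver.

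Irf7 was higher in liver. Its lowest, median and highest ratios were -1.29, -1.06 and -0.91 in 6 control lungs and -0.035, 0.24 and 0.51 in 8 control livers. No lung reached the lowest liver, the difference of lung minus liver was -1.33 ± 0.084 (SE), a 2.51-fold higher ratio in liver (adjusted p = 2.97e-10, limma), and the probe is one of those in spliced sequence. Each of the 12 mice measured in both tissues had the higher ratio in liver, by 0.79 to 1.53 on the log2 scale. The mean ratio of 6 marker genes of plasmacytoid dendritic cells was -1.05 to -0.47 in control livers and -0.061 to 0.20 in control lungs, with Siglech well above background in no liver. Bst2, which is also induced by interferon, ran the other way from this mean, at 1.53 in control livers and 0.80 in control lungs (adjusted p = 6.85e-07, limma). The part of such cells in the Irf7 difference was not tested.

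Oasl2 and Ifit2 were higher in lung. Oasl2 had a lowest, median and highest ratio of 0.60, 1.08 and 1.48 in control lungs and of -0.65, -0.38 and -0.04 in control livers. All 6 lungs were above every liver, with a difference of 1.43 ± 0.13 (SE), or 2.70-fold (adjusted p = 2.82e-08, limma), and all 12 mice had the higher ratio in lung. Ifit2 ran from -0.10 to 0.15 in control lungs and from -1.19 to -0.56 in control livers, again without overlap, with a difference of 0.84 ± 0.082 (SE), or 1.79-fold (adjusted p = 9.27e-08, limma). Its second probe was well above background in 2 of 8 control livers, so the size of its difference, fitted at 0.27 (adjusted p = 0.000221, limma), is uncertain.

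The same order of tissues held in exposed mice for these 3 genes, whose lung and liver values did not overlap over all 28 arrays. The share of all probes without such overlap was not counted, and 57.8% of all probes were called between control lung and control liver (limma). Being called between control tissues is a different measure from the absence of overlap over all arrays. Whether the absence of overlap is particular to these genes was therefore not tested. Mean ratios in exposed lungs and livers were -1.07 and 0.072 for Irf7, 1.04 and -0.57 for Oasl2 and -0.055 and -0.99 for Ifit2.

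Smaller differences were seen in the other members. Ifit3 was 1.24-fold higher in control lung (difference 0.31, adjusted p = 0.00803, limma), with 4 of 6 lungs above every liver, but with median centering the difference was 0.18 with an adjusted p of 0.493. Usp18 was 1.29-fold higher in control liver (difference -0.37, adjusted p = 0.00196, limma), although the lowest liver, that of mouse 45, at -0.88, lay among the lungs, which ran from -0.91 to -0.73. Rsad2 was higher in liver by its probes 2 and 3, at -0.38 and -0.33 (adjusted p = 0.0166 and 0.0281, limma), and not by its brightest probe, at -0.41 ± 0.25 (SE, adjusted p = 0.175), which passed at -0.57 (adjusted p = 0.0306) without the liver of mouse 45. Ifi44 was higher in lung by its second probe, at 0.29 (adjusted p = 0.00317, limma), and gave 0.31 (adjusted p = 0.102) by its first, or 0.43 (adjusted p = 0.00398) without the liver of mouse 32.

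Ifit1 and Stat2 did not pass. Ifit1 gave -0.23 ± 0.17 (SE, adjusted p = 0.261, limma), and the livers themselves ran from -0.08 to 1.20. With the mouse as a block over the 6 control mice measured in both tissues, the difference was -0.44 with an adjusted p of 0.0045 (limma), and each of the 12 mice, exposed mice included, had the higher Ifit1 ratio in liver, by 0.047 to 0.89 on the log2 scale. Stat2 gave -0.18 ± 0.11 (SE, adjusted p = 0.16, limma) and -0.25 (adjusted p = 0.0238) without the liver of mouse 26, with 4 of 10 mice higher in lung and 6 higher in liver.

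**Figure D4:**
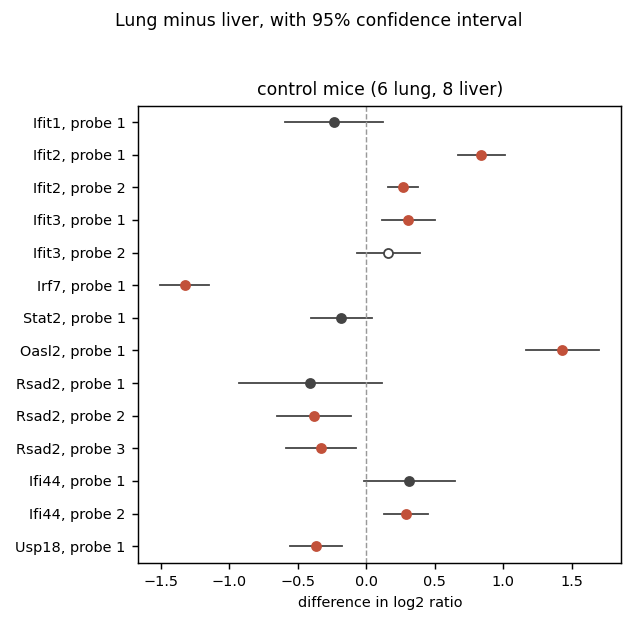
Difference of control lung minus control liver in log2 ratio (horizontal axis) for each of the 14 member probes, with 95% confidence intervals as lines. Red points passed an adjusted p of 0.05, black points are brightest probes and the open point another probe that did not pass; Irf7 lies at -1.33 and Oasl2 at 1.43.

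The wider pathway differed between tissues in both directions as well. Among other type I interferon-stimulated genes, 31 of 57 had a probe called higher in control lung and 14 had one called higher in control liver, and among gamma-induced genes 10 and 10 of 23. Over the array, 32.8% of genes had a probe called higher in lung and 32.6% one called higher in liver. At the ends of these lists were Ifi27, 5.95-fold higher in lung, Lgals9, which encodes a galectin, 7.38-fold higher in liver, and Iigp1, a GTPase that attacks the vacuoles of parasites, 9.86-fold higher in liver (all limma, adjusted p of 1.62e-09 or less). Tlr9, an endosomal DNA sensor, was 5.08-fold higher in liver (adjusted p = 5.77e-13), and Tlr7, an RNA sensor, 2.09-fold higher in lung (adjusted p = 1.23e-07, limma).

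Between mice of 1 group, most of the 9 genes varied more than a typical probe. The SD within groups was largest for Rsad2, at 0.363 in lung and 0.538 in liver, where the median over probes well above background was 0.121 in lung and 0.148 in liver. That placed Rsad2 above 97.7% of probes in lung and 98.7% in liver. Oasl2 (0.277) and Ifit1 (0.229) followed in lung, and Ifit1 (0.384) and Ifi44 (0.377) in liver. Usp18 was the least variable of the 9 in lung, at 0.111, and Irf7 in liver, at 0.163. The rank of Rsad2 held for its brightest probe only. Its probes 2 and 3 had SDs of 0.218 and 0.221 in lung, below Oasl2 and Ifit1. In liver they had 0.275 and 0.247, below Ifit1 and Ifi44.

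This spread was shared between separate probes of a gene and between genes. After subtraction of the group mean, the 3 Rsad2 probes followed each other with Pearson's r of 0.819 to 0.848 in lung and 0.801 to 0.933 in liver, and the 2 Ifit3 probes with 0.763 and 0.869. The 2 Ifi44 probes did so less, at 0.248 and 0.62, and those of Ifit2 at 0.511 in lung and 0.035 in liver, where the second is near background. Over the 36 pairs of the 9 genes, the median r was 0.442 in lung over 13 arrays and 0.502 in liver over 15 arrays, with 34 and 29 pairs above 0. The closest pair was Ifit1 with Stat2 in lung (0.872) and Ifit3 with Usp18 in liver (0.781), and the least alike were Oasl2 with Rsad2 in lung (-0.099) and Stat2 with Oasl2 in liver (-0.514). These correlations are descriptions over arrays that share a dye, a reference and their slides. The share of all gene pairs with r above 0 was not counted, so whether the pairs of these genes exceed it was not tested.

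Single mice show the pattern. Mouse 1, exposed, lay above its group mean in 9 of 9 genes in lung and 9 of 9 in liver, by 0.26 and 0.23 on average. Mouse 19, also exposed, lay above its group mean in 1 of 9 genes in lung and 1 of 8 in liver, at -0.21 and -0.26 on average. The control mouse 45, measured in liver only, had the lowest average deviation, -0.44, and the control mouse 32 the highest in liver, 0.29, while in lung mouse 32 was at 0.0005. These mice were picked after their values were seen.

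**Figure D5:**
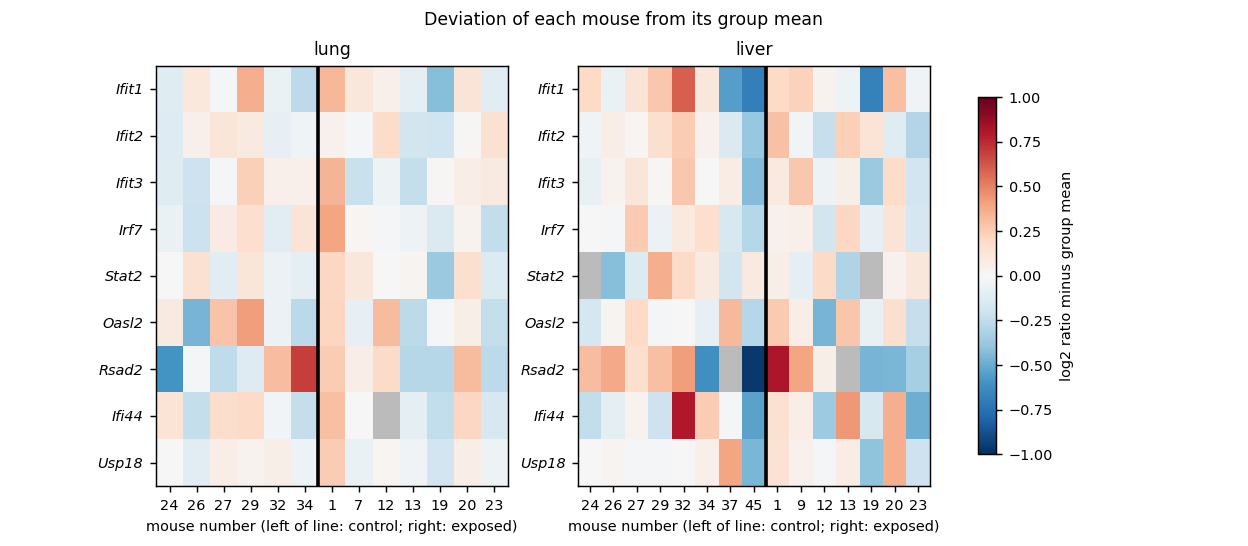
Log2 ratio minus group mean (colour, red above and blue below, grey where a marked spot was left out) for the brightest probe of each of the 9 genes (rows) in each mouse (columns), in lung (left) and liver (right), with control mice left of the line and exposed mice right of it. Columns of 1 colour, such as mouse 1 in both tissues or mouse 45 in liver, are mice in which most of the genes deviated together.

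Whether the level of a gene in the lung of a mouse went with its level in the liver was tested gene by gene over the mice measured in both tissues, after centring on the group mean. Of 14 relations, 7 had r above 0, beside 55.3% of 25729 probes, with a median of 0.0052 beside 0.0486, and 0 of 14 passed an unadjusted p of 0.05 (permutation within groups, 100000 draws). The highest was Usp18, with r = 0.616 (permutation p = 0.129, adjusted 0.773) and rho = 0.343 (permutation p = 0.323) over 12 mice, which was 0.299 without mice 1 and 19. Ifit1 had r = 0.582 (permutation p = 0.0729, adjusted 0.718) and rho = 0.538 (permutation p = 0.0833), and 0.214 without mice 19 and 29, and Ifit2 had r = -0.571 (permutation p = 0.138, adjusted 0.78) and rho = -0.552 (permutation p = 0.15). Over the array, 0 of 25729 probes passed an adjusted p of 0.05. With lung slide as well as group centred out, 10 of 14 member relations were above 0, beside 57.7% of all probes, with a median of 0.174 beside 0.0842. Ifi44 then changed from 0.0928 to 0.733 and its second probe from 0.462 to 0.858, while Ifit1 was at 0.684 and Usp18 at 0.625. The 95th percentile over all probes was 0.679, 7 degrees of freedom were left for 12 mice, and these values were not tested.

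The genes outside the set that followed its mean most closely were ranked by Pearson's r within each tissue. In lung, over 17386 genes, they were Edil3 (0.909), Diap1 (0.884), Ccl20 (0.873), Ankrd50 (0.87), Rtp4 (0.868), Isg15 (0.866), Lasp1 (0.861), C230021P08Rik (0.85), Plekhc1 (0.846) and Parp14 (0.845). In liver, over 17481 genes, those with a gene symbol were Rtp4 (0.892), Samd9l (0.879), Zdhhc17 (0.867), Prpf38a (0.866), 2010321M09Rik (0.862), 9030418K01Rik (0.858), Ier5 (0.857) and Pld1 (0.85), beside 2 unnamed transcripts. The 95th percentile of r over all genes was 0.543 in lung and 0.546 in liver. Rtp4 was the 1 gene named in both tissues, and 3 of 10 in lung (Rtp4, Isg15, Parp14) and 2 of 10 in liver (Rtp4, Samd9l) belonged to the interferon lists. Each rests on 11 to 15 arrays of 1 tissue.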

How the data were processed

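Every array held the RNA of 1 mouse, so p-values of comparisons within a tissue measure the spread between animals. Main fits across the tissues treated all arrays as independent, although 12 mice had arrays in both, and fits with the mouse as a block were alternatives. Groups were taken from the labels, and the number of arrays limits the precision. The authors deposited scanner output as raw spot intensity, from Agilent Feature Extraction 9.5.3.1 (lung) and 10.1.1.1 (liver) per the file headers, and a table of LOWESS-normalized log2 ratios, used as an alternative. The lung miRNA arrays were not used here. Liver spots were named through identical feature numbers and probe names in the lung files.

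Median intensity was corrected with normexp (offset 50, limma 3.58.1 in R 4.3.3). Spots marked as outliers were kept out of the background model, because including them moved it on some arrays. Ratios were loess-normalized within arrays, control spots were left out, and unmarked spots of a probe were averaged; 7 marked member spots were dropped. Groups were compared with lmFit and eBayes (Benjamini-Hochberg over all probes, threshold 0.05), tested on simulated data. Exact permutation tests used all splits of the mice, and relations between tissues 100000 permutations within groups. Probes are called well above background where the scanner software marks them so on 50% or more of the arrays of a group compared. Mouse numbers were taken to mark the same animal in lung and liver, and within a tissue no 2 arrays share a number. Deviations from the group mean correlated between the tissues of a number at -0.103 to 0.283. Arrays of different numbers were not compared, so these values cannot show that the match is right. Some numbers name exposed mice in the mRNA labels and control mice in the miRNA labels. Fits with the mouse as a block and the relations between tissues rest on this match.

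Members, lists and tests were chosen with earlier results of these data known. Named were all members, and in each interferon list the genes called and those with the highest and lowest difference in each tissue; between tissues, where most genes were called, a few list ends, Tlr7 and Tlr9 were chosen after their values were seen, as were the marker genes named.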

Additional observations from a re-analysis of the deposited data

Results flagged for a closer look

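Of 56 sets of values (14 member probes in 4 groups), 4 held 1 mouse far from the others by Dixon's ratio of gap to range, which chance gives in about 1 set in 20. Ifit1 in exposed livers had mouse 19 at -0.19 while the next lowest was 0.43. Irf7 in exposed lungs had mouse 1 at -0.67 with the next highest at -1.04. The second Ifit2 probe, the dimmest of the set, had mouse 29 at 0.265 among control lungs, next to 0.10, and mouse 23 at -0.48 among exposed livers, next to -0.35. Without mouse 1 the lung difference of Irf7 was -0.059, and without mouse 19 the liver difference of Ifit1 was -0.010; neither was called with or without that mouse.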

How the results depend on the processing

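No member probe was called between exposed and control mice, in lung, in liver or between the tissues' differences, under any alternative run or with any array left out. Over the 9 genes, 81 of 90 lung and 84 of 90 liver differences kept their sign. Differences that turned were, in lung, Irf7 (-0.0061 without background correction, -0.024 in the authors' table), Stat2 (-0.11 with normexp on all spots, -0.029 from processed signals, -0.0066 in the authors' table), Ifit3 (-0.086 with normexp on all spots) and Oasl2 (0.071 with median centering, 0.078 and 0.0082 with the slide as a fixed and a random block). In liver, normexp on all spots gave 0.046 for Ifit1, 0.078 for Ifit3, 0.0077 for Stat2 and 0.053 for Rsad2, and median centering 0.056 for Stat2 and 0.016 for Usp18. Between the tissues' differences, normexp on all spots gave -0.16 for Ifit3, -0.12 for Stat2, -0.35 for Rsad2 and 0.32 for Ifi44, the authors' table -0.0046 for Rsad2, and the mouse block 0.16 for Ifit1. Leaving out 1 array gave -0.059 to 0.047 for Irf7, -0.023 to 0.074 for Stat2, -0.0064 to 0.067 for Usp18 and -0.11 to 0.065 for Oasl2 in lung, and -0.086 to 0.20 for Rsad2 and -0.18 to 0.034 for Ifit1 between the tissues' differences. The cause was not tested.

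Over the array, 83 lung probes were called, 12 with normexp on all spots, 4 with median centering and 133 with the slide as a random block. For the tissues' differences the 58 became 5, 12 and, from processed signals, 34, and with the mouse as a replicate block 49. Between control lung and liver 6 to 10 member probes were called under the alternatives other than leaving out an array, 10 and 9 with the mouse as a fixed and a random replicate block, and 8 to 10 with 1 array left out; no member changed direction. Lung to liver relations turned for Ifit3 (-0.115), Rsad2 (0.486) and Ifi44 (-0.373) without 2 mice, and for Stat2 (0.203), Oasl2 (0.145) and Rsad2 (0.128) with the slide centred. Exposed arrays 20 and 23 share a lung slide with no control array. Depth enters through signal over background, which limits the second Ifit2 probe in liver.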
